A study of Mus musculus with 9 samples.

Results

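The transcription factors that mark single nuclei of the hypothalamus were followed in hypothalamic RNA of Clic1 KO and WT mice. A list of 38 names was matched by gene symbol to the deposited expression table, and 37 of them had a row among 14351 genes. Lhx8, a LIM homeodomain factor of preoptic cholinergic neurons, had no row under that symbol and was not analysed here. None of the 37 factors was called different between KO and WT mice, and 1 library, KO replicate 10, held the lowest value of most of them.

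The hypothalamus is built of small nuclei that arise from separate progenitor domains. Each domain is laid down in the embryo by combinations of transcription factors, many of them with a homeodomain, and several of these factors stay on in adult neurons. Otp and Sim1 mark the paraventricular and supraoptic nuclei, Nr5a1 and Fezf1 the ventromedial nucleus, Tbx3 and Isl1 the arcuate nucleus, Zfhx3 and Six3 the suprachiasmatic nucleus, Foxb1 the mammillary body, and Tcf7l2 the thalamus above. In RNA from a whole dissected hypothalamus their levels therefore follow which nuclei were taken and in what share. Fewer cells of a type and less RNA per cell cannot be told apart in such samples.

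The 9 libraries came from male mice, 1 mouse each, fed normal chow. KO mice lack Clic1, a chloride intracellular channel protein, in the whole body, and the WT mice were their littermates. The study describes a CD-1 background, whereas the sample labels give C57b/6J and a protocol for adipose tissue. The age of these mice was not given in the sources used here. The KO group held replicates 2, 4, 6, 8 and 10 (n = 5) and the WT group replicates 1, 3, 9 and 11 (n = 4). The labels of replicate 10 disagree: its library name carries the KO prefix, and its title and treatment field say WT. It was kept with the KO libraries, and the comparisons were repeated without it.

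Values are the authors' CPM, read counts scaled to a common library total. The steps between the lowest values gave estimated totals of 5.46 to 20.2 M (mega) reads per KO library and 7.26 to 11.1 M per WT library, with the highest total in KO replicate 10. Clic1 was lower in every KO library (0.733 to 1.93 CPM) than in every WT library (3.58 to 5.52 CPM). On the log2 scale KO minus WT was -1.80 ± 0.27 (SE), with an adjusted p of 0.0153 in limma. In KO replicate 10 Clic1 was at 1.43 CPM, within the range of the other KO libraries. Without that library its log2 fold change was -1.84 (adjusted p = 0.00494, limma). The call did not hold in each subset of mice, since leaving out WT replicate 1, 3 or 9 gave adjusted p of 0.0893, 0.0826 and 0.0702 in limma.

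Promoter sequences were available for 28 of the 37 factors, in RefSeq promoters of 300 bases on GRCm38.p6 that run from 250 bases before the transcription start to 50 after it. The factors did not stand apart from other genes in these windows. Their promoters held a median of 20 CpG dinucleotides (range 2 to 46), against 20 in the 11225 genes of the table with a promoter, and 71.4% against 69.5% had a ratio of observed to expected CpG over 0.6. The TATA box letters TATAAA, on either strand, were in 3 of the 28 promoters (10.7%, against 7.16% of all), and the homeodomain core TAATTA, which reads the same on both strands, in 1 (3.57%, against 2.5%). The promoters of 3 genes are printed because their genes recur below: Otp, which had the highest level per length among the 28, and Dlx1 and Dlx2, neighbours that varied together between mice. Capitals mark CpG dinucleotides, and each sequence runs 5′ to 3′ on the strand of its gene.
Otp, chr13:94875386-94875685, plus strand: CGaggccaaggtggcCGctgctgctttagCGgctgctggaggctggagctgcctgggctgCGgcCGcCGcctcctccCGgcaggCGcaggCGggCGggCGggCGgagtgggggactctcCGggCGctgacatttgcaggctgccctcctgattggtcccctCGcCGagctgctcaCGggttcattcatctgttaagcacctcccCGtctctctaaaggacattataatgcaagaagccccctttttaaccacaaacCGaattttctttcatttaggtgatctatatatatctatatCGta
Dlx1, chr2:71529195-71529494, plus strand: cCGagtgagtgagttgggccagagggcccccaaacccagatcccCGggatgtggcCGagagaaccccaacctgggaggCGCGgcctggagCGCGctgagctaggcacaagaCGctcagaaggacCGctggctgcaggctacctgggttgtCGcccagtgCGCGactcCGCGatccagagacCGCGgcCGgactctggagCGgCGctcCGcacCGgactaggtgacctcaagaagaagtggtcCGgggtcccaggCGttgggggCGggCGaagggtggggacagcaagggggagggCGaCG
Dlx2, chr2:71546705-71547004, minus strand: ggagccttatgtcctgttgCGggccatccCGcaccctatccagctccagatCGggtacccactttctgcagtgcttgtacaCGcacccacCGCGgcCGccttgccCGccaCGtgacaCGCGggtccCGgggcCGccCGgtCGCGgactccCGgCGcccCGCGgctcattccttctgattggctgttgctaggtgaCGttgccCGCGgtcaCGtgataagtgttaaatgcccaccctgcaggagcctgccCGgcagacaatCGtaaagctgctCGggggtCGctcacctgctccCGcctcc
The promoter of Otp holds 20 CpG, that of Dlx1 27 and that of Dlx2 29. Where a gene had several promoters, as 7 of the factors did, the first listed was used. The Dlx1 window lies inside the annotated gene, which starts at 71528113 on chromosome 2.

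All 37 factors were measured above 0 in all 9 libraries. Levels between genes were compared per kilobase of the longest annotated transcript. In WT mice the highest were Zfhx4 at 22 ± 1.56 CPM per kb (SD, n = 4), Otp at 21.4 ± 1.87 and Zfhx3 at 21 ± 2.15, which did not differ beyond their spread. Zfhx4 and Zfhx3 are very large zinc-finger homeodomain proteins with long transcripts. Their raw levels were 305 and 360 CPM in WT mice, against 56.9 CPM for the much shorter Otp. Next came Nkx2-1, the homeodomain factor of the ventral hypothalamus, at 16.8 CPM per kb, and Rorb, an orphan nuclear receptor, at 15.9 CPM per kb. The lowest were Hmx2 at 0.816 ± 0.195 CPM per kb, Lhx9, a LIM homeodomain factor of orexin neurons, at 0.849 ± 0.166, and Barhl1, a homeodomain factor of the subthalamic and mammillary region, at 1.12 ± 0.197. The values of these 3 also overlapped, and the libraries with the least signal held about 14 reads of Hmx2 and 13 of Barhl1.

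**Figure D1:**
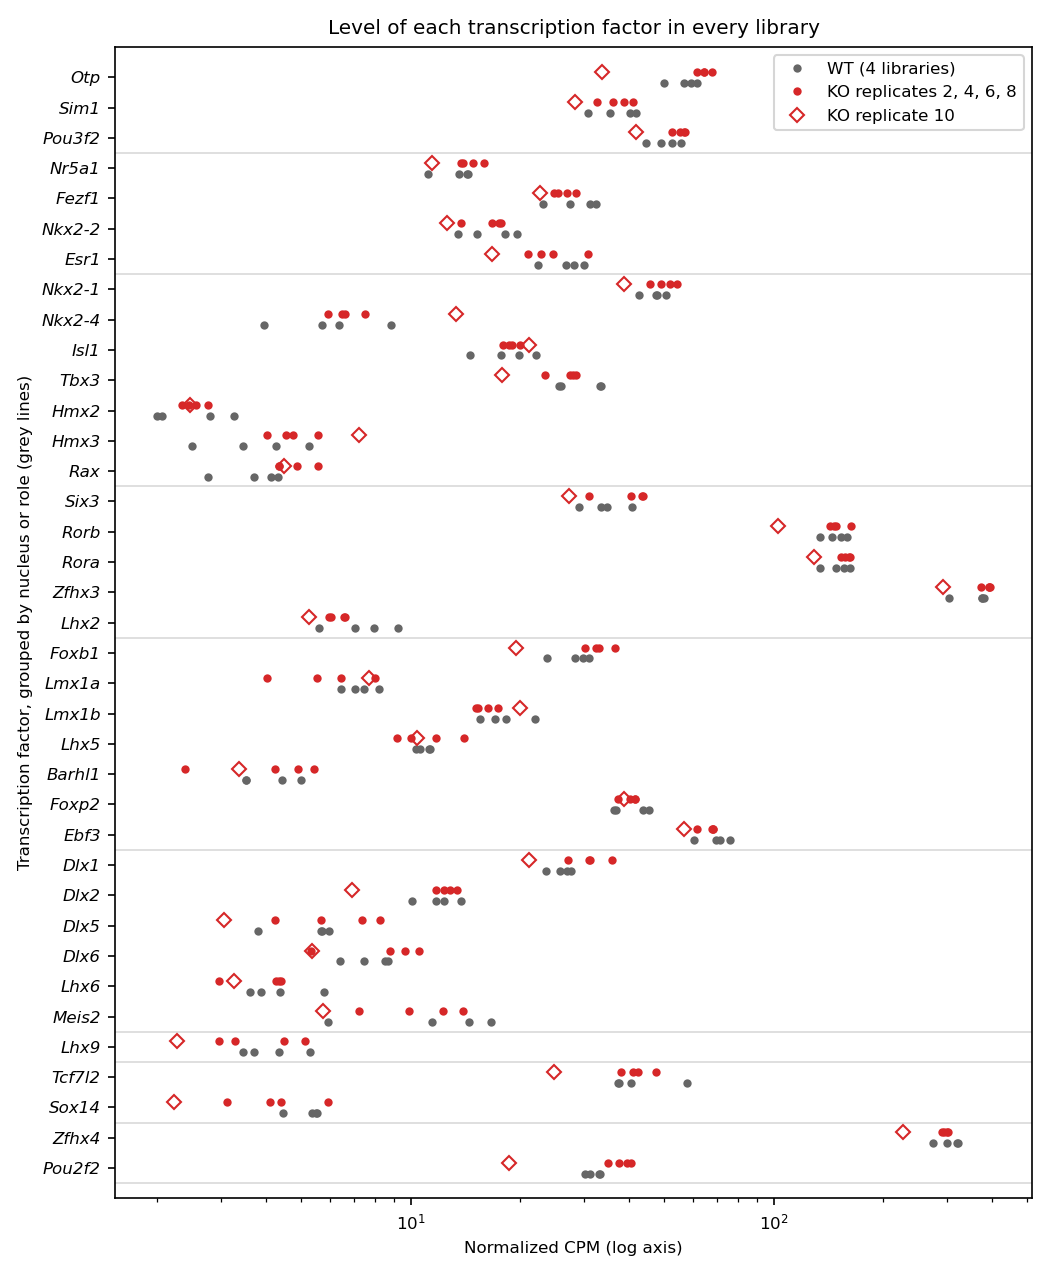
Normalized CPM (log axis) of each of the 37 transcription factors in 4 WT libraries (grey), 4 KO libraries (red) and KO replicate 10 (open diamond), grouped by nucleus or role. For most factors the red and grey points overlap, and the diamond lies left of all other points for 24 of them.

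Counts of calls were read against those of all genes. In the limma fit of 5 KO against 4 WT libraries, 0 of 37 factors had an adjusted p under 0.05, where 0.286% of all genes did. At an unadjusted p under 0.05 the count was also 0 of 37, where 6.5% of all genes passed, 3.44% higher and 3.07% lower in KO mice. The smallest adjusted p was 0.788. Log2 fold changes lay between -0.45 and 0.44, 16 above and 21 below 0, with a median of -0.02 against 0.00089 for all genes. The 95% interval of the difference lay within -1 and 1 for all 37 factors and within -0.5 and 0.5 for 21 of them. In the others the interval reached beyond 0.5 in at least 1 direction.
Without KO replicate 10, 0 of 37 factors had an adjusted p under 0.05 (0.606% of all genes). At an unadjusted p under 0.05, 4 of 37 passed (10.8%), close to the 10.5% of all genes. These 4 were Otp, Pou2f2, Dlx1 and Foxb1, each higher in KO mice, where 5.57% of all genes passed in that direction and 4.96% in the other. The smallest adjusted p was 0.182, for Pou2f2. With all 9 libraries, limma-voom on estimated counts, the closest fit to the study's own, also gave 0 of 37 at an adjusted p under 0.05, and 2 at an unadjusted p under 0.05, where 7.83% of all genes passed.

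**Figure D2:**
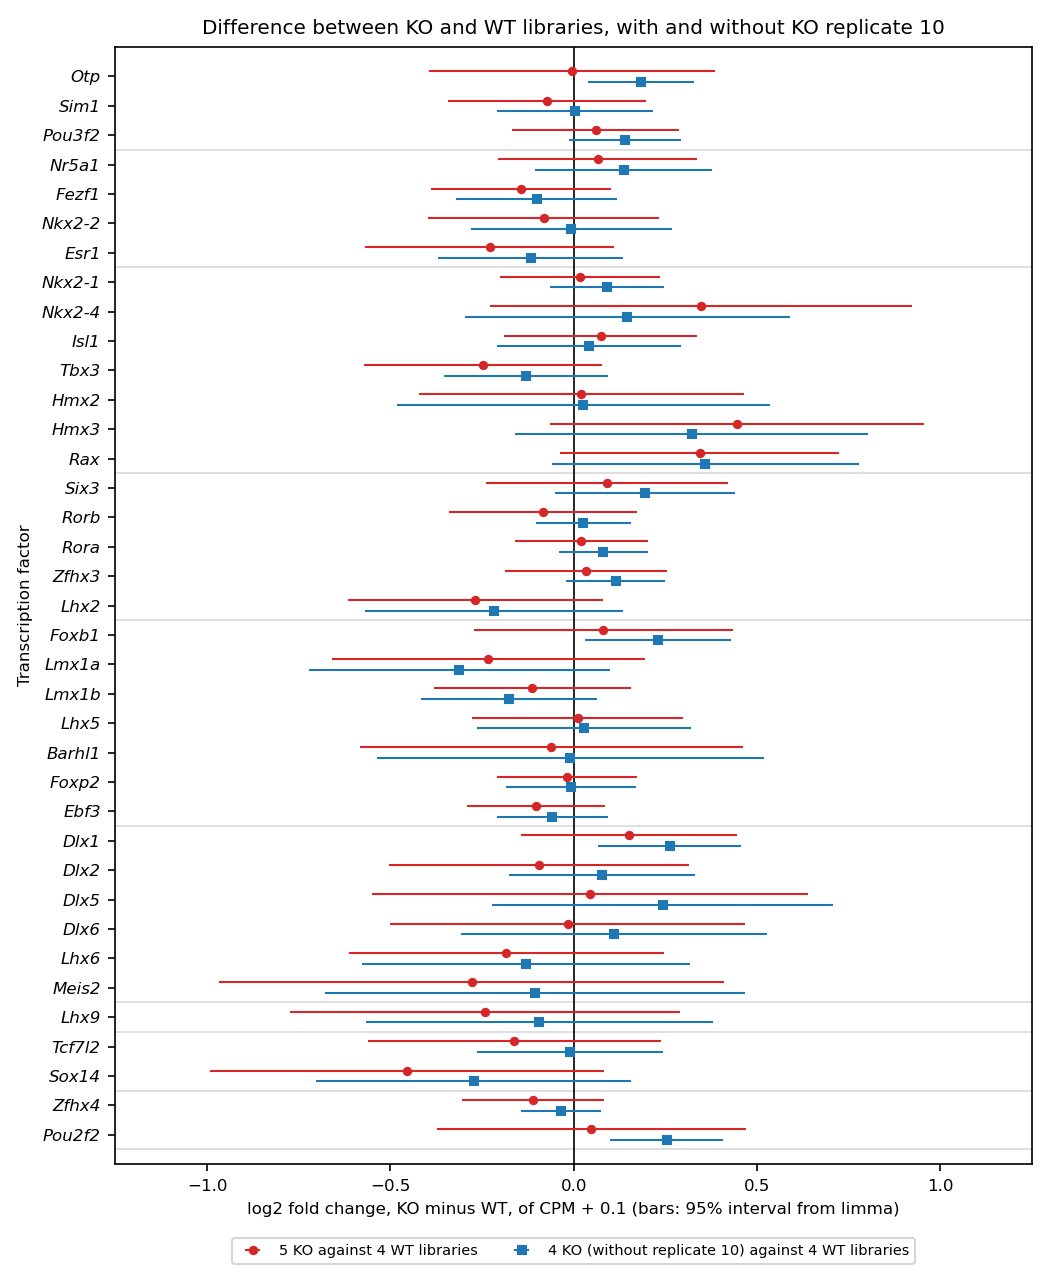
Log2 fold change of KO minus WT for the 37 factors on the log2(CPM + 0.1) scale with its 95% interval from limma, for 5 KO libraries (red circles) and for 4 KO libraries without replicate 10 (blue squares). All red intervals cross 0, whereas the blue intervals of Otp, Foxb1, Dlx1 and Pou2f2 lie above it.

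The factors of the paraventricular and supraoptic nuclei are Otp, Sim1 and Pou3f2, which act together in the neuroendocrine neurons that make vasopressin, oxytocin and corticotropin-releasing hormone. Otp (ENSMUSG00000021685, chromosome 13 from 94875602 to 94885130 of GRCm38) was at 67.6, 64.2, 61.7, 64.3 and 33.6 CPM in KO replicates 2, 4, 6, 8 and 10, and at 56.8, 61.4, 50 and 59.2 CPM in WT replicates 1, 3, 9 and 11. The first 4 KO libraries stood just above all WT libraries, and KO replicate 10 far below them. With all 5 KO libraries the log2 fold change was -0.0037 (95% interval -0.39 to 0.39, adjusted p = 0.997, limma). Without replicate 10 it was 0.18 (standard error 0.07, unadjusted p = 0.0169, adjusted p = 0.33, limma), and the exact permutation test gave its smallest possible p for 4 against 4, 0.0286. Sim1, a bHLH-PAS factor needed to form these neurons, spanned 28.3 to 41 CPM among KO and 30.8 to 41.9 CPM among WT mice, with a log2 fold change of -0.07 (adjusted p = 0.93, limma), or 0.0029 without replicate 10. Pou3f2, a POU factor downstream of Sim1, had a log2 fold change of 0.06 (adjusted p = 0.932, limma), and of 0.14 without replicate 10 (adjusted p = 0.529).
A list of 25 peptide genes covers these and the other hypothalamic nuclei. Of these 22 had a row and 1 passed the threshold, Avp, which encodes vasopressin. It was higher in KO mice, at 207 CPM against 111 CPM (log2 fold change 0.90, adjusted p = 0.0027, limma; without replicate 10, 0.82, adjusted p = 2.02e-05). At an unadjusted p under 0.05 in limma, 1 of the 22 was higher and 0 lower, where 3.44% of all genes were higher and 3.07% lower. Without replicate 10, 2 were higher and 4 lower, where 5.57% of all genes were higher and 4.96% lower. The log2 fold changes of the 22 then ran from -0.67 to 0.82. Otp, Sim1 and Pou3f2 did not pass the adjusted threshold in either fit.

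The arcuate and tuberal factors included Hmx3 and Rax, with 2 of the higher values in KO mice. Rax, a homeodomain factor of tanycytes, the glial cells lining the floor of the third ventricle, was the only factor whose 5 KO and 4 WT libraries did not overlap. It was at 5.54, 4.35, 4.33, 4.85 and 4.48 CPM in KO replicates 2, 4, 6, 8 and 10, and at 4.31, 3.7, 2.76 and 4.13 CPM in WT replicates 1, 3, 9 and 11. The gap between the groups was narrow, with the lowest KO library at 4.33 and the highest WT library at 4.31 CPM. A single factor of 37 without overlap is 2.7%, where 3.41% of all genes had none, 1.67% with KO above WT and 1.74% with KO below. The log2 fold change was 0.34 (95% interval -0.04 to 0.72, adjusted p = 0.788, limma), and the exact permutation test gave p = 0.0159, its smallest possible value for 5 against 4. Without replicate 10 the change was 0.36 (adjusted p = 0.559, limma). An antisense gene, Raxos1, covers 27.4% of the exon bases of Rax, and whether reads were counted by strand was not given in the sources used here, so their reads cannot be told apart. The summed CPM of 11 ependymal and tanycyte markers was 241 to 355 in KO and 303 to 326 in WT libraries.
Hmx3 and Hmx2, homeodomain factors needed for growth hormone-releasing hormone neurons, lie 3.85 kb apart on chromosome 7. Hmx3 was at 5.54, 4.74, 4.03, 4.53 and 7.22 CPM in KO replicates 2, 4, 6, 8 and 10, and at 5.25, 4.25, 2.5 and 3.44 CPM in WT replicates 1, 3, 9 and 11. The groups overlapped, and KO replicate 10 was the highest. Its log2 fold change of 0.44 was the largest upward value in the set (95% interval -0.07 to 0.96, adjusted p = 0.794, limma) and became 0.32 without that library (adjusted p = 0.672). Hmx2, at 2.45, 2.77, 2.56, 2.35 and 2.47 CPM in KO replicates 2, 4, 6, 8 and 10 and at 3.26, 2.8, 2 and 2.07 CPM in WT replicates 1, 3, 9 and 11, had its KO values inside the WT range. Its log2 fold change was 0.02 (95% interval -0.42 to 0.46).
Nkx2-4, a homeodomain relative of Nkx2-1, was at 5.92, 6.46, 6.59, 7.51 and 13.3 CPM in KO replicates 2, 4, 6, 8 and 10, and at 5.7, 3.94, 8.8 and 6.34 CPM in WT replicates 1, 3, 9 and 11. KO replicate 10 stood above all other libraries. Its log2 fold change of 0.35 (adjusted p = 0.862, limma) was 0.15 without that library (adjusted p = 0.869). Tbx3, a T-box factor that maintains the identity of Pomc and Agrp neurons, was at 27.6, 28.5, 23.4, 28 and 17.8 CPM in KO replicates 2, 4, 6, 8 and 10, and at 33.2, 26, 33.5 and 25.6 CPM in WT replicates 1, 3, 9 and 11. Its log2 fold change was -0.25 (adjusted p = 0.828, limma), and -0.13 without replicate 10 (adjusted p = 0.724). Isl1, a LIM homeodomain factor needed for Pomc neurons, and Nkx2-1 had log2 fold changes of 0.07 and 0.02, or 0.04 and 0.09 without replicate 10.

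The ventromedial factors were low together in WT replicate 11 and in KO replicate 10, and none passed the test between genotypes. Nr5a1, the nuclear receptor that defines this nucleus, Fezf1, a zinc-finger factor of its development, Nkx2-2, a homeodomain factor of ventral patterning, and Esr1, estrogen receptor alpha, were all at their lowest WT value in replicate 11. In that library they had 11.2, 23.1, 13.5 and 22.5 CPM, against 13.6 to 14.4, 27.5 to 32.5, 15.3 to 19.6 and 26.8 to 30 CPM in the other WT libraries. The median deviation of the 4 from the other WT libraries was -0.36 (log2), and that of all genes in this library was -0.0029. In either direction the median size for all genes was 0.10. All 4 factors were also below the other KO libraries in KO replicate 10 (median -0.36) and in KO replicate 2 (median -0.08). Another small group fell on 1 side as well, the 3 paraventricular and supraoptic factors in WT replicate 9 (median -0.24). Between KO and WT mice the log2 fold changes of Nr5a1, Fezf1, Nkx2-2 and Esr1 were 0.07, -0.14, -0.08 and -0.23, with adjusted p of 0.845 or more in limma. Nr5a1 and Nkx2-2 were at 0.14 and -0.0068 without KO replicate 10. Esr1 was at 21.1, 30.8, 24.7, 22.8 and 16.7 CPM in KO replicates 2, 4, 6, 8 and 10, and at 28.2, 30, 26.8 and 22.5 CPM in WT replicates 1, 3, 9 and 11, so that the groups overlapped. Its change was -0.12 without replicate 10 (adjusted p = 0.796). In KO replicates 2, 4, 6, 8 and 10 Fezf1 was at 25.5, 26.9, 24.9, 28.6 and 22.8 CPM, and in WT replicates 1, 3, 9 and 11 at 31.3, 27.5, 32.5 and 23.1 CPM, with overlap. Its change was -0.10 without replicate 10 (adjusted p = 0.8).

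Of the suprachiasmatic factors, Zfhx3, Rorb and Rora were among the 7 highest per kb, and Lhx2 was at 7.44 CPM in WT mice. Zfhx3, which sets the period of the clock in this nucleus, was at 391, 392, 396, 373 and 292 CPM in KO replicates 2, 4, 6, 8 and 10, and at 376, 376, 304 and 381 CPM in WT replicates 1, 3, 9 and 11. One library in each group was low, and the other 7 lay within 373 to 396 CPM. Its log2 fold change was 0.03 (95% interval -0.19 to 0.25, adjusted p = 0.963, limma), and 0.11 without replicate 10 (adjusted p = 0.565). Rora and Rorb, nuclear receptors of which Rora is a part of the clock feedback loop, had log2 fold changes of 0.02 and -0.08, and Six3, a homeodomain factor of the anterior hypothalamus, of 0.09. Without replicate 10 these were 0.08, 0.03 and 0.19 (adjusted p of 0.598 or more, limma). Lhx2, a LIM homeodomain factor also needed in tanycytes, was at 6.57, 6.59, 6.04, 5.94 and 5.24 CPM in KO replicates 2, 4, 6, 8 and 10, and at 9.22, 5.6, 7.9 and 7.03 CPM in WT replicates 1, 3, 9 and 11. Only WT replicate 3 lay among the KO values. The log2 fold change was -0.27 (95% interval -0.62 to 0.08, adjusted p = 0.828, limma). Without replicate 10 it was -0.22 (adjusted p = 0.704).

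The mammillary and subthalamic factors were Foxb1, Lmx1a, Lmx1b, Lhx5, Barhl1, Foxp2 and Ebf3. Foxb1, a forkhead factor needed for the mammillary body, was at 36.7, 32.4, 30.2, 33 and 19.6 CPM in KO replicates 2, 4, 6, 8 and 10, and at 28.4, 23.7, 29.8 and 31 CPM in WT replicates 1, 3, 9 and 11. The groups overlapped with and without replicate 10. The log2 fold change was 0.08 (adjusted p = 0.943, limma), and 0.23 without that library (95% interval 0.03 to 0.43, unadjusted p = 0.0261, adjusted p = 0.38, limma), where the exact permutation test gave p = 0.0571. The antisense gene B230323A14Rik covers 14% of its exon bases. The LIM homeodomain factors Lmx1a and Lmx1b had negative log2 fold changes, -0.23 and -0.11 (adjusted p of 0.862 and 0.888, limma), and of -0.31 and -0.18 without replicate 10. Barhl1 was at 4.89, 5.4, 2.38, 4.22 and 3.36 CPM in KO replicates 2, 4, 6, 8 and 10, and at 3.53, 3.52, 5 and 4.41 CPM in WT replicates 1, 3, 9 and 11, with both the highest and the lowest value among KO libraries. Lhx5, a LIM homeodomain factor, Barhl1, Foxp2, a forkhead factor, and Ebf3, of the COE family, had log2 fold changes between -0.10 and 0.01, and between -0.06 and 0.03 without replicate 10.

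The GABAergic factors varied together between mice of the same genotype. Dlx1, Dlx2, Dlx5 and Dlx6 are homeodomain factors of GABAergic neurons that sit in 2 pairs, Dlx1 with Dlx2 on chromosome 2, 9.43 kb apart, and Dlx6 with Dlx5 on chromosome 6, 9.24 kb apart. Lhx6 marks GABAergic neurons of the zona incerta and dorsomedial region, and Meis2 is a TALE homeodomain factor found in many of the same cells. Relative to the other libraries of their group, all 6 were lower in KO replicate 10 and in WT replicate 9, with median deviations of -0.74 and -0.35 (log2), and the median in KO replicate 8 was -0.43. In KO replicate 6 they were higher, with a median of 0.33. Pearson's r of the deviations from the group means was 0.89 for Dlx1 with Dlx2 and 0.85 for Dlx5 with Dlx6 over 9 libraries, and 0.57 and 0.77 over the 8 without replicate 10. Among the other pairs of neighbouring factors, r over 9 libraries ran from -0.46 (Nkx2-4 with Nkx2-2) to 0.65 (Hmx3 with Hmx2). Over the 8 libraries it ran from -0.51 (Rora with Foxb1) to 0.81 (Hmx3 with Hmx2). The points behind each r share each library's depth and scaling. The summed CPM of 11 striatal marker genes, where these factors are also found, was 284 in KO replicate 10 and 324 in WT replicate 9, the lowest of each group, but 362 in KO replicate 8, the highest of all 9. The part of neighbouring tissue in this variation was not tested.
Dlx1 was at 31.2, 30.9, 35.9, 27.1 and 21.1 CPM in KO replicates 2, 4, 6, 8 and 10, and at 27.6, 26.9, 23.6 and 25.8 CPM in WT replicates 1, 3, 9 and 11. The groups overlapped. The log2 fold change was 0.15 (adjusted p = 0.87, limma), and 0.26 without replicate 10 (standard error 0.09, unadjusted p = 0.0123, adjusted p = 0.294, limma; exact permutation test, p = 0.0571). Dlx2, Dlx5, Dlx6 and Lhx6 had log2 fold changes of -0.09, 0.05, -0.02 and -0.18. Without replicate 10 they were 0.08, 0.24, 0.11 and -0.13 (adjusted p of 0.767 or more, limma). Meis2 had the largest standard error in the set. Its KO libraries spanned 5.74 to 13.9 CPM and its WT libraries 5.9 to 16.7 CPM, so that its log2 fold change of -0.28 had a 95% interval of -0.97 to 0.41. Without replicate 10 the change was -0.11 (95% interval -0.68 to 0.47, adjusted p = 0.937, limma).

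Thalamic factors mark tissue above the hypothalamus. Tcf7l2, a Wnt effector abundant in thalamic neurons, was at 41.1, 47.6, 38.1, 42.4 and 24.8 CPM in KO replicates 2, 4, 6, 8 and 10, and at 37.2, 57.6, 37.5 and 40.4 CPM in WT replicates 1, 3, 9 and 11. WT replicate 3 was the highest and KO replicate 10 the lowest, and the log2 fold change was -0.16 (adjusted p = 0.888, limma), or -0.0096 without replicate 10 (adjusted p = 0.987). The summed CPM of 13 other thalamic markers was 1182 to 1234 in KO and 1198 to 1252 in WT libraries. It was 1221 in WT replicate 3. The part of thalamic tissue in these values was not tested. Sox14, an SRY-related factor of thalamic and visual relay GABAergic neurons, was at 5.92, 4.09, 4.4, 3.13 and 2.23 CPM in KO replicates 2, 4, 6, 8 and 10, and at 5.34, 4.46, 5.5 and 5.51 CPM in WT replicates 1, 3, 9 and 11. Its log2 fold change of -0.45 was the largest downward value in the set (95% interval -0.99 to 0.08, adjusted p = 0.803, limma) and became -0.27 without replicate 10 (adjusted p = 0.697). Lhx9, of orexin neurons, was at 2.96, 4.48, 5.13, 3.28 and 2.28 CPM in KO replicates 2, 4, 6, 8 and 10, and at 4.34, 5.28, 3.7 and 3.44 CPM in WT replicates 1, 3, 9 and 11. The groups overlapped, with a log2 fold change of -0.24 (adjusted p = 0.88, limma), or -0.09 without replicate 10 (adjusted p = 0.933).
Pou2f2, a POU factor best known from B lymphocytes, was at 40.4, 37.6, 35, 39.4 and 18.6 CPM in KO replicates 2, 4, 6, 8 and 10, and at 31.3, 33.2, 30.2 and 33.1 CPM in WT replicates 1, 3, 9 and 11. The first 4 KO libraries lay above all WT libraries and KO replicate 10 below them. The log2 fold change was 0.05 (adjusted p = 0.974, limma), and 0.25 without replicate 10 (standard error 0.07, unadjusted p = 0.00331, adjusted p = 0.182, limma), where the exact permutation test gave its smallest possible p, 0.0286. Without replicate 10, Otp, Rax and Pou2f2 had KO libraries all above WT, 8.11% of the factors, and none had them all below. Of all genes 6.06% had no overlap, 2.86% with KO above WT and 3.19% with KO below. Zfhx4 was at 295, 301, 290.5, 302 and 228 CPM in KO replicates 2, 4, 6, 8 and 10, and at 301, 322, 276 and 321 CPM in WT replicates 1, 3, 9 and 11. Apart from replicate 10 the groups overlapped. It had a log2 fold change of -0.11 (95% interval -0.31 to 0.08, adjusted p = 0.862, limma) and of -0.03 without replicate 10.

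KO replicate 10 had the lowest of 9 values for 24 of the 37 factors (64.9%), where this library was the lowest for 28.3% of all genes. The next library, WT replicate 9, was the lowest for 4 factors. Relative to the other 4 KO libraries, 32 of the 37 factors were lower in replicate 10, with a median difference of -0.38 (log2), against 49.7% of all genes and a median of 0.0036. In every library the median of all genes lay near 0, between -0.0029 and 0.0062. The median size of the difference, in either direction, was 0.40 for the factors and 0.29 for all genes in replicate 10. For all genes it was 0.085 to 0.136 in the other libraries. Replicate 10 was also the highest of 9 for 30.1% of all genes and for 2 factors. The 5 that were higher were Nkx2-4, Hmx3, Isl1, Lmx1a and Lmx1b. Pou2f2, Dlx5, Sox14, Otp and Meis2 were at 48.9%, 48.2%, 50.8%, 52.1% and 53% of the mean of the other KO libraries, and Hmx2, Foxp2 and Rax at 97.7%, 96.3% and 94%. By group the median difference ran from -0.84 for the 2 thalamic factors and -0.74 for the 6 GABAergic factors to -0.09 for the 7 mammillary and subthalamic and -0.03 for the 7 arcuate and tuberal factors. The 13 other thalamic markers had a median difference of -0.16 in this library, with 9 of the 13 lower. Their summed CPM, 1227, was within the range of the other KO libraries. The part of thalamic tissue in these values was not tested.

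**Figure D3:**
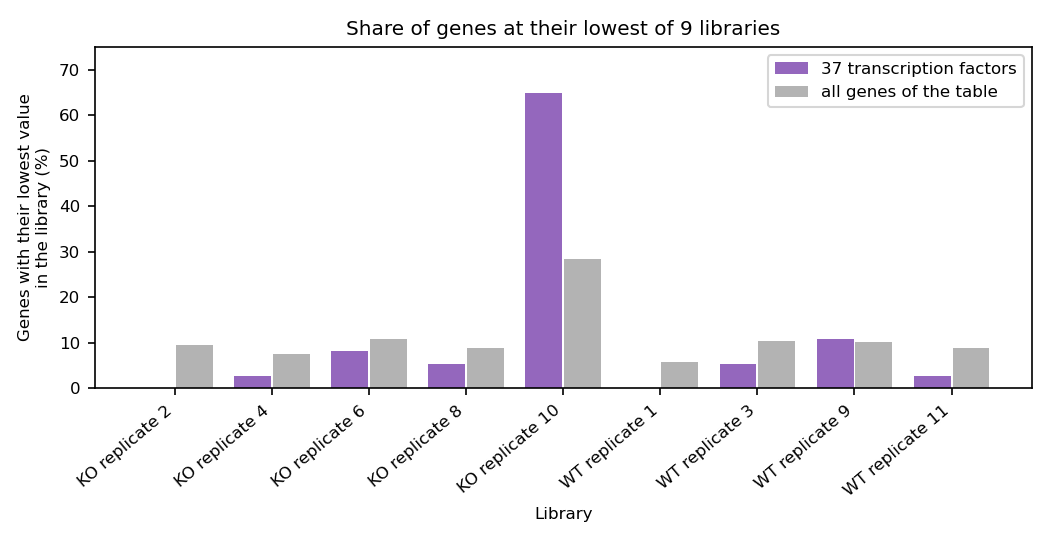
Percent of the 37 transcription factors (purple) and of all 14351 genes (grey) that had their lowest of 9 values in each library. KO replicate 10 held the lowest value of 64.9% of the factors and of 28.3% of all genes.

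**Figure D4:**
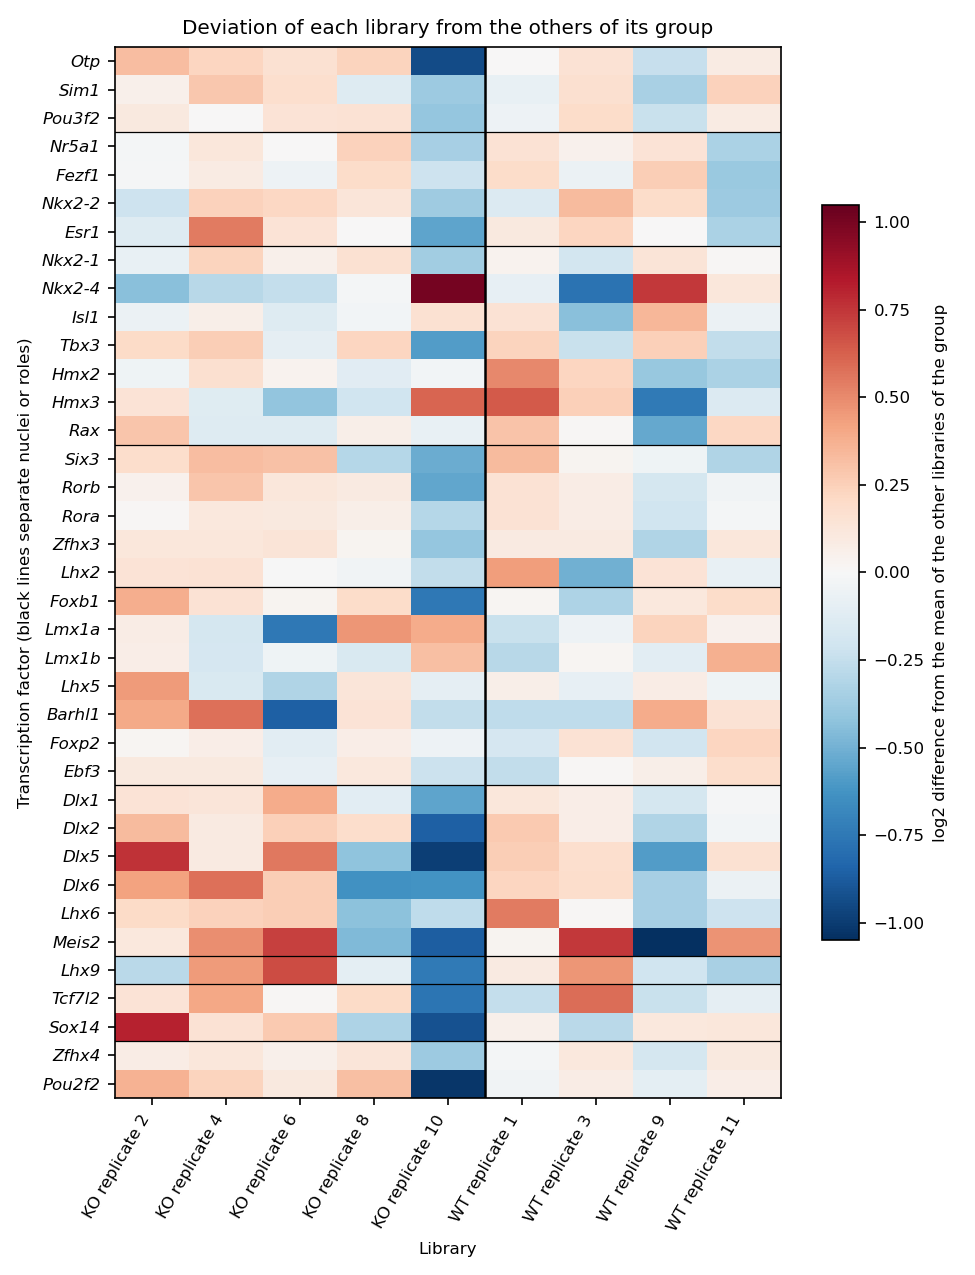
Log2 difference of each library from the mean of the other libraries of its group, for each of the 37 factors (rows, grouped by nucleus or role) and 9 libraries (columns). The column of KO replicate 10 is below 0 (blue) for 32 factors. KO replicates 2 and 10 and WT replicate 11 are below 0 for all 4 ventromedial factors. KO replicate 10 and WT replicate 9 are below 0 for all 6 GABAergic factors.

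Transcript length moved with replicate 10 as well. With all genes split into 4 bins of equal size by transcript length, its median difference from the other KO libraries was 0.19 (log2) in the bin of the shortest transcripts, 0.04 and -0.02 in the middle bins and -0.11 in the bin of the longest. The medians of the factors were lower in each bin, at -0.50, -0.26, -0.54 and -0.41 for 6, 13, 6 and 12 factors, and their median transcript length, 3481 nt, was near the 3504 nt of all genes. Other values also differed in this library. The summed CPM of 8 astrocyte markers was 3023, where the other KO libraries had 2490 to 2617 and 2508 to 2941 in WT libraries, that of 11 ependymal and tanycyte markers 241 against 287 to 355 in the same libraries, and that of 22 peptide genes 1345 against 1030 to 1190, while that of 10 neuron markers was 6297 against 5867 to 6154, within the 5753 to 6623 of WT libraries. Their part in the low values of the factors was not tested.

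A further 52 transcription factors of the hypothalamus were listed beside the 37, and 48 had a row. None of the 48 had an adjusted p under 0.05 in either fit. At an unadjusted p under 0.05 in limma, 2 of the 48 were higher in KO mice and 0 lower, where 3.44% of all genes were higher and 3.07% lower. Without replicate 10 the counts were 3 and 0 of 48, where 5.57% of all genes were higher and 4.96% lower. The smallest p were those of Lhx1, a LIM homeodomain factor (20.4 ± 2.01 CPM in KO against 16 ± 1.76 CPM in WT mice, log2 fold change 0.35, adjusted p = 0.506, limma), Prdm13 (3.91 ± 0.725 against 2.75 ± 0.944 CPM, 0.52, adjusted p = 0.766) and Sim2, the relative of Sim1 (2.58 ± 0.456 against 1.87 ± 0.316 CPM, 0.44, adjusted p = 0.786). The KO and WT libraries overlapped in all 3. Without replicate 10 the values were 0.31, 0.46 and 0.52 (adjusted p of 0.284, 0.566 and 0.477, limma). The smallest p was then that of Zic1, a zinc-finger factor singled out after its values were seen, with a log2 fold change of 0.45 (adjusted p = 0.192, limma) against 0.21 with all 5 KO libraries. In KO replicate 10, 32 of the 48 lay below the mean of the other KO libraries, with a median difference of -0.24.
Marker genes of tissue next to the hypothalamus and of other cells passed no test between genotypes at the adjusted threshold. Of 13 thalamic, 11 striatal, 10 cortical and hippocampal, 6 choroid plexus, 11 ependymal and tanycyte, 10 oligodendrocyte, 8 astrocyte, 10 neuron and 6 microglia and blood genes, 0 had an adjusted p under 0.05 with or without replicate 10, and the median log2 fold change of each list lay between -0.12 and 0.11. Of 7 pituitary genes 0 passed as well, but their median was -0.52, and the summed CPM was 177 to 216 in 4 KO libraries, 259 in KO replicate 10 and 219 to 298 in WT libraries. Without replicate 10 the KO sums lay below all WT sums and the median was -0.55. In this fit 3 of the 7 genes were lower at an unadjusted p under 0.05 in limma, where 4.96% of all genes were lower and 5.57% higher. Among the other marker lists, 3 of 10 oligodendrocyte, 2 of 8 astrocyte, 1 of 13 thalamic and 1 of 11 striatal genes were lower. In the same fit 2 thalamic genes, 1 choroid plexus gene and 1 microglia and blood gene were higher. Defining markers with no row in the table used here were Ttr and Folr1 of the choroid plexus, Gh and Prl of the pituitary, Slc17a7 and Emx1 of the cortex and Gbx2 of the thalamus. Of the same lists, 6 choroid plexus, 7 pituitary, 10 cortical and hippocampal and 13 thalamic genes did have rows. Rows were found by gene symbol, which 14202 of the 14351 genes carried. A name without a row was therefore not shown to be unexpressed. The summed CPM of the 10 cortical and hippocampal genes was 369 to 408 in KO and 369 to 403 in WT libraries.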

How the data were processed

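RNA of 9 hypothalami was sequenced with TruSeq libraries. Per the labels' processing notes, the authors used FastQC 0.11.8, Trimmomatic 0.38, STAR 2.5.1a and RSEM 1.3.0 with GRCm38.p6, and limma and edgeR. Per the study's methods they kept genes with at least 1 CPM in 5 libraries and scaled them by TMM. The deposited values are this normalized signal, CPM per gene, for 14351 genes. Columns of the authors' own comparison (fold changes and p-values) were not used. Also left out was 1 column that matched no sample, although its name carries the WT prefix. No alternative setting included it.
Steps between values up to 2.5 CPM gave the library totals, and 81% to 86.5% of these values were whole reads within 0.03. The number of reads and of mice limits the precision.
Groups came from the library names. KO and WT were compared on log2(CPM + 0.1) with limma 3.58.1 (R 4.3.3, intensity trend, two-sided, Benjamini-Hochberg over all genes, threshold 0.05), which understates changes of low genes, and with two-sided exact permutation tests (scipy 1.17.1), whose smallest p are 0.0159 for 5 against 4 and 0.0286 for 4 against 4. The fit was tested on simulated data. Alternatives were other pseudocounts, scalings, variance models, a filter at a mean of 5 CPM, replicate 10 as WT, and leaving out each library. A library's deviation is its log2 value minus the mean of the other libraries of its group.
The members and gene lists were chosen with earlier results of these data known. All members are named, with Clic1, genes of other lists with an adjusted p under 0.05, and otherwise the 3 with the smallest p among the other transcription factors. The 8 members with the smallest p and the 3 highest and 3 lowest by CPM per kb were described in full, and further members were given per library after their values were seen. Transcript lengths and gene overlaps came from GENCODE and promoters from RefSeq.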

Additional observations from a re-analysis of the deposited data

Results flagged for a closer look

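In 11 of 76 groups of 4 or 5 libraries, the highest or lowest library lay far from the nearest other one for its group's range, where chance gives about 3.8. Of these, 7 were in KO replicate 10, 2 in WT replicate 9 and 2 in WT replicate 3. The share of such groups over all genes is not given here, so the count is not a result about the factors. Over all genes, KO replicate 10 also differed more from its group than the other libraries did. The median size of its difference was 0.29 (log2), against 0.085 to 0.136 in the others.
KO replicate 10 was lowest of its group for Otp (33.6 CPM, nearest 61.7), Rora (129 CPM, nearest 154), Zfhx3 (292 CPM, nearest 373), Dlx2 (6.87 CPM, nearest 11.7), Zfhx4 (228 CPM, nearest 290.5) and Pou2f2 (18.6 CPM, nearest 35), and highest for Nkx2-4 (13.3 CPM, nearest 7.51).
WT replicate 9 was lowest of its group for Zfhx3 (304 CPM, nearest 376) and Dlx5 (3.8 CPM, nearest 5.65). WT replicate 3 was highest for Tcf7l2 (57.6 CPM, nearest 40.4) and lowest for Sox14 (4.46 CPM, nearest 5.34).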

How the results depend on the processing

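No factor passed an adjusted p under 0.05 in any of 19 alternative settings, and the smallest was 0.182, without KO replicate 10. The count at an unadjusted p under 0.05, 0 of 37 as reported, was 3 with array weights (11.6% of all genes passed), 2 with limma-voom (7.83%), 1 without the intensity trend (6.88%) and 4 with replicate 10 as WT (6.65%), and 0 to 4 when 1 library was left out (4.68% to 10.5%; 4 without KO replicate 10). The count without overlap, 1 as reported (3.41% of all genes), was 2 with replicate 10 as WT (3.07% of all genes). It was 1 to 3 when 1 library was left out, with 3 without KO replicate 10 (6.06% of all genes). The shares of all genes for the other libraries left out are not given here, so those counts are not results about the factors. Of 696 log2 fold changes of single factors in these settings, 631 kept their sign and 65 did not, for reported values of at most 0.35 in size. With array weights, the sign changed for Otp (0.15), Nkx2-2 (0.024), Hmx2 (-0.070), Barhl1 (0.11), Foxp2 (0.013), Dlx6 (0.051) and Tcf7l2 (0.019). With limma-voom on estimated counts, the sign changed for Nkx2-1 (-0.010), Hmx2 (-0.0031), Dlx5 (-0.12) and Pou2f2 (-0.044). With quantile normalization, the sign changed for Hmx2 (-0.042) and Lhx5 (-0.0051). With replicate 10 as WT, the sign changed for Otp (0.33), Sim1 (0.078), Nkx2-2 (0.070), Esr1 (0.017), Nkx2-4 (-0.083), Tbx3 (0.013), Rorb (0.13), Barhl1 (0.045), Foxp2 (0.0050), Dlx2 (0.23), Dlx6 (0.21), Meis2 (0.087), Lhx9 (0.073), Tcf7l2 (0.15) and Zfhx4 (0.049). Leaving out 1 library changed the sign for Otp (-0.068 to 0.18), Sim1 (-0.16 to 0.0029), Nr5a1 (-0.017 to 0.14), Nkx2-2 (-0.18 to 0.0010), Nkx2-1 (-0.030 to 0.091), Isl1 (-0.036 to 0.16), Hmx2 (-0.078 to 0.15), Rorb (-0.14 to 0.026), Rora (-0.032 to 0.081), Zfhx3 (-0.045 to 0.11), Foxb1 (-0.00046 to 0.23), Lhx5 (-0.079 to 0.074), Barhl1 (-0.18 to 0.11), Foxp2 (-0.068 to 0.039), Dlx2 (-0.17 to 0.077), Dlx5 (-0.11 to 0.24), Dlx6 (-0.13 to 0.11) and Pou2f2 (-0.025 to 0.25). Apart from the settings that regroup or leave out libraries, the causes were not tested. No paired analysis was possible because the sources used here do not give which KO and WT mice shared a litter. Clic1 had an adjusted p of 0.501 in limma with replicate 10 as WT.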
